A study of Homo sapiens with 10 samples.

Results

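Eph receptors and ephrins, Slits and Robos, and netrins with their receptors DCC and UNC5 are the guidance families described here, followed as 37 named genes in a neuroblastoma line carrying different primate *FOXP2* cDNAs. The members were chosen by name, as all rows of the deposited expression table whose gene symbol was on the list, and they make up 37 of the 27992 gene symbols in that table. They comprise 14 ligands (5 ephrin-A, 3 ephrin-B, 3 Slit and 3 netrin genes) and 23 receptors (9 EPHA, 5 EPHB, 4 Robo and 5 netrin receptor genes).

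SH-SY5Y is a human neuroblastoma cell line, and FOXP2 is a forkhead transcription factor known for its part in speech and language. The cells were stably transfected with the linearized plasmid pcDNA3 carrying *FOXP2* isoform I cDNA of human (hsaFOXP2), chimpanzee (ptrFOXP2), Rhesus monkey (mmuFOXP2) or marmoset (cjaFOXP2), or with the empty plasmid (pcDNA3), and all 5 conditions, the empty plasmid included, were kept in medium with geneticin. Replicates A and B came from separate rounds of transfection, which gave 10 poly(A) RNA libraries, 2 for each condition. The labels give 2 rounds, while the methods mention a further one that is not among these libraries. The comparisons ask whether guidance genes differed between cells with human and with non-human *FOXP2* cDNA, and between cells with *FOXP2* and with empty plasmid. A stable transfection is limited as a model because where and how often the plasmid entered the genome is not controlled, and RNA of the 4 cDNAs was also present at different levels.

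In the nervous system these families steer growing axons and migrating cells. Ephrins sit on the membrane of one cell and activate Eph receptor tyrosine kinases on the next, often causing repulsion, with ephrin-A proteins held by a lipid anchor and ephrin-B proteins spanning the membrane. Slits are secreted and repel through Robo receptors, while netrins attract through DCC and repel through UNC5 receptors. All of them act outside the nervous system too, in vessels and in tumours, and neuroblastoma arises from the sympathetic lineage of the neural crest.

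Expression was measured as BPKM, the bases mapped per kilobase of exon model, scaled to the mapped bases of the library, and a gene's level was the mean over its transcripts. Absolute depth is unknown because the table holds no counts, but the spacing of the lowest values placed the libraries within a relative depth of 1.00 to 1.27, and 22.8% to 24.7% of transcripts were at 0. *FOXP2* reached 1.54 and 0.932 BPKM in the hsaFOXP2 libraries A and B, 2.09 and 21.8 BPKM in ptrFOXP2, 30.2 and 3.91 BPKM in mmuFOXP2, and 14.5 and 18.3 BPKM in cjaFOXP2, against 0.0045 and 0 BPKM in pcDNA3. Both hsaFOXP2 libraries thus had less *FOXP2* RNA than any other transfectant with *FOXP2*, so the origin of the cDNA and the level of its RNA cannot be told apart in comparisons with the human cDNA. The adrenergic neuroblastoma markers GATA3, HAND2, PHOX2A and ISL1 were expressed in every library and TH was at or near 0 (at most 0.002 BPKM), while 10 of 10 mesenchymal neuroblastoma markers had a mean of at least 1 BPKM, VIM reaching 1280 to 2490 BPKM. The summed endothelial markers stayed between 0.0706 and 0.806 BPKM. SOX10 and CDH1 were near 0 throughout, but some other markers of their Schwann cell and epithelial lists were high. PMP22 lay at 37.3 to 135 BPKM, KRT18 at 34.1 to 257 BPKM and KRT8 at 3.62 to 60.8 BPKM. The epithelial list summed to 41.6 to 321 BPKM. Under 1 BPKM in every library were 4 of 6 Schwann cell and 2 of 6 epithelial markers, SOX10 and CDH1 among them. In RNA from whole cultures, fewer cells of a type and less RNA per cell cannot be told apart.

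Promoter sequence is shown for 4 members that the results below turn on, as the 250 bases before the gene start given by RefSeq on GRCh38.p14. RefSeq rows were matched for 31 of the 37 symbols, with 42 windows in all. EPHB4 and SLIT3 were higher and EPHB6 was lower in both hsaFOXP2 libraries than in the other 8, and ROBO1 had the widest gap between hsaFOXP2 replicates among the Robo receptors, its window here being that of the outermost of 2 starts. Capitals mark ATTTGT, the only match in these 4 windows to 3 FOXP2-binding motifs, AATTTG among them, searched on both strands.
EPHB4 (chr7:100827524-100827773, minus strand): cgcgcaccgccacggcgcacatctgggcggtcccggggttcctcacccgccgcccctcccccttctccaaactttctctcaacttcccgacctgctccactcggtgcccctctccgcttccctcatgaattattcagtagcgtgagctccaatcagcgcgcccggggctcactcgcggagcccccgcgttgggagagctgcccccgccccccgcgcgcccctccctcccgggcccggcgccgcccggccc
SLIT3 (chr5:169301140-169301389, minus strand): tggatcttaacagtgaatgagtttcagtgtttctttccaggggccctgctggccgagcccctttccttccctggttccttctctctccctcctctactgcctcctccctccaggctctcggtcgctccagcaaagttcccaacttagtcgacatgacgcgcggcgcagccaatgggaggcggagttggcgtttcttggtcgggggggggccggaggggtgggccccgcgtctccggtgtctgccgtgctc
EPHB6 (chr7:142862506-142862755, plus strand): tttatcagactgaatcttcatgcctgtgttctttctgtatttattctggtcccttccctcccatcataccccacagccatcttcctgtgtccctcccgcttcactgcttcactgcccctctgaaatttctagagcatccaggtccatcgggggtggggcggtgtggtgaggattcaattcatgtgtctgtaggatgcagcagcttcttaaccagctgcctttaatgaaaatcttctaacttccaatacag
ROBO1 (chr3:79767999-79768248, minus strand): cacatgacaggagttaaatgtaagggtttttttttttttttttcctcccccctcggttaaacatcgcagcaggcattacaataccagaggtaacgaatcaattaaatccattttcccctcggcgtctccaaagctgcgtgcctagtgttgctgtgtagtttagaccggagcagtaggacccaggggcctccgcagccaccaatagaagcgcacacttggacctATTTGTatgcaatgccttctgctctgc
The EPHB6 window lies inside the span of the gene, before a start downstream of its first exon, and none of these 4 windows overlaps an annotated exon of its own gene. The motif AATTTG was found in 9.61% of all 35116 windows of this length and in those of EPHA1 and ROBO2. The motif ATTTGT, whose first letters can overlap the end of the previous motif, was found in 10.6% of all windows and, among members, only in that of ROBO1, and the motif TGTTTAC was found in 2.98% and in no member's window. A match is a run of letters and not a binding site, and a window without one says nothing of FOXP2.

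The cells expressed ligands more uniformly than receptors. A mean of at least 1 BPKM was reached by 12 of 14 ligands and 10 of 23 receptors, and by 22 of 37 members in all (59.5%), against 47.9% of all genes. The highest mean levels over the 10 libraries were those of SLIT2 at 79.6 BPKM, UNC5B at 56.9 BPKM, EPHA2 at 36.8 BPKM and ROBO1 at 34.6 BPKM. The heat map of levels shows that signal was concentrated in EPHA2 among the EPHA receptors and in SLIT2 and SLIT3 among the Slits.

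**Figure D1:**
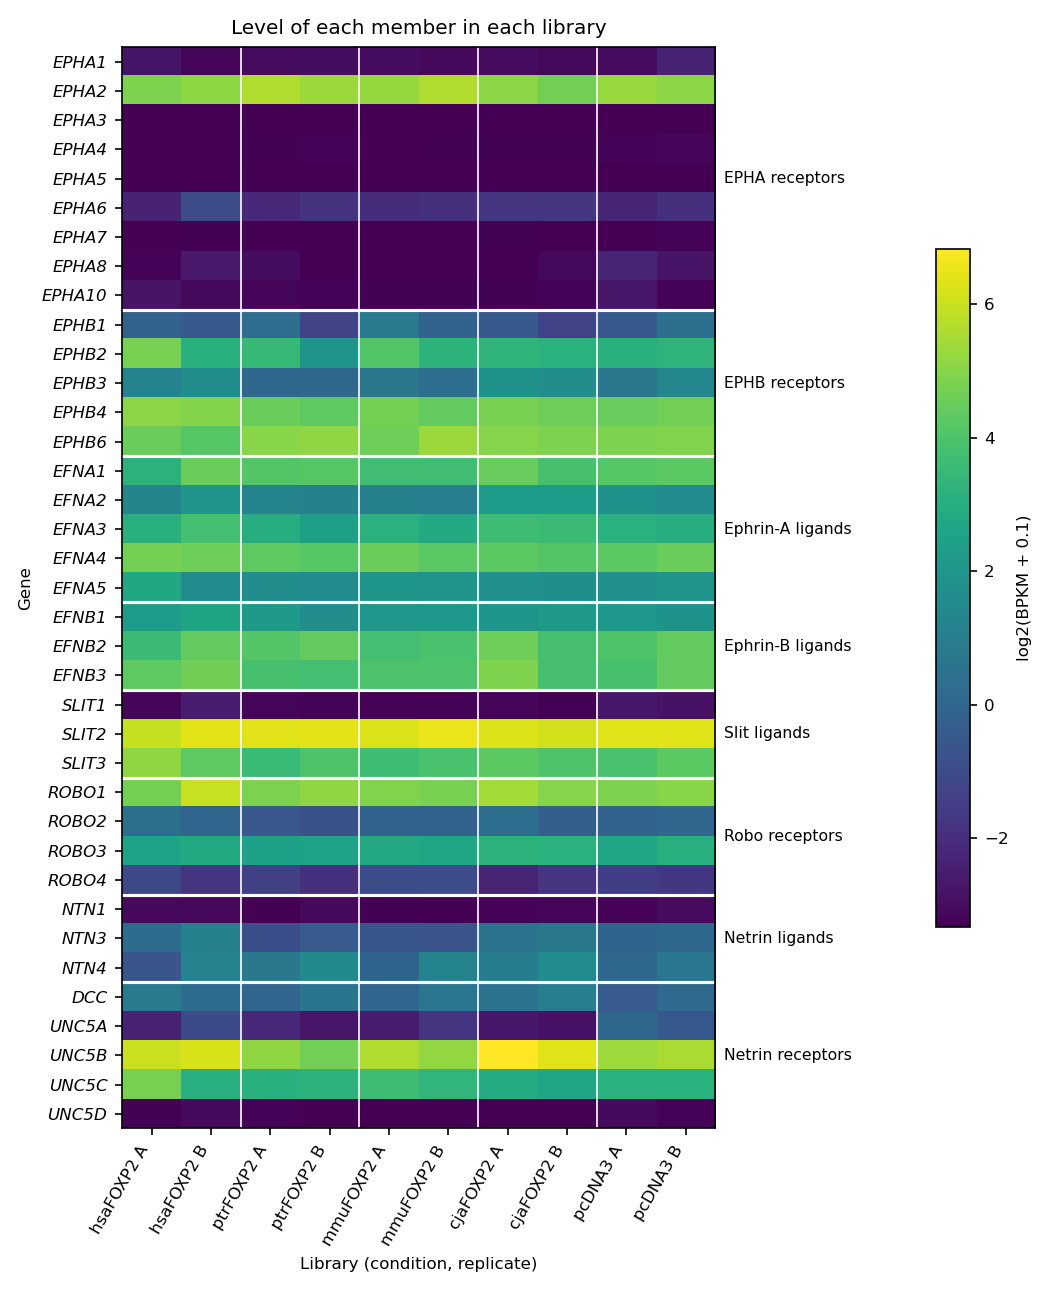
Level of each of the 37 members (rows, grouped by family) in each of the 10 libraries (columns, condition and replicate), as colour on the scale of log2(BPKM + 0.1). EPHA2 stands alone among the EPHA receptors, whereas all 8 ephrin rows carry signal in every library.

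Among the EPHA receptors, which bind mainly ephrin-A, EPHA2 had 29.0 and 34.3 BPKM in hsaFOXP2, 48.7 and 39.9 BPKM in ptrFOXP2, 37.4 and 48.7 BPKM in mmuFOXP2, and 33.7 and 25.4 BPKM in cjaFOXP2, against 37.9 and 33.2 BPKM in pcDNA3. Both ptrFOXP2 libraries lay above those of hsaFOXP2, cjaFOXP2 and pcDNA3, and both mmuFOXP2 libraries lay above those of hsaFOXP2 and cjaFOXP2. All other pairs of conditions overlapped, and EPHA2 passed no adjusted test. EPHA6 lay between 0.0953 and 0.395 BPKM, and EPHA1, EPHA4, EPHA7, EPHA8 and EPHA10 stayed at or below 0.109 BPKM. EPHA3 and EPHA5 were listed at 0 in all 10 libraries and entered no test.

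Of the EPHB receptors, which bind mainly ephrin-B, EPHB2 had 26.8 and 8.72 BPKM in hsaFOXP2, 11.2 and 3.75 BPKM in ptrFOXP2, 16.8 and 9.34 BPKM in mmuFOXP2, and 9.92 and 8.92 BPKM in cjaFOXP2, against 8.56 and 9.77 BPKM in pcDNA3. Its highest library was hsaFOXP2 A and its lowest ptrFOXP2 B, a 7.15-fold span. EPHB3 was lower, between 0.953 and 3.49 BPKM, and EPHB1 lay between 0.315 and 1.72 BPKM. EPHB4, the receptor of ephrin-B2 known from vessels, and EPHB6, which lacks kinase activity, are described with the hsaFOXP2 comparison.

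All 5 ephrin-A and all 3 ephrin-B genes were expressed at a mean of at least 2 BPKM. EFNA1 had 9.22 and 23.0 BPKM in hsaFOXP2, 17.3 and 18.0 BPKM in ptrFOXP2, 12.9 and 13.2 BPKM in mmuFOXP2, and 22 and 14.8 BPKM in cjaFOXP2, against 17.6 and 19.4 BPKM in pcDNA3. EFNA3 had 8.65 and 13.9 BPKM in hsaFOXP2, 8.01 and 5.31 BPKM in ptrFOXP2, 8.88 and 7.23 BPKM in mmuFOXP2, and 12.7 and 12 BPKM in cjaFOXP2, against 8.95 and 7.84 BPKM in pcDNA3. Both cjaFOXP2 libraries and hsaFOXP2 B were thus the 3 highest for EFNA3, while EFNA1 was both highest and lowest in hsaFOXP2. EFNA5 had 6.64 and 3.00 BPKM in hsaFOXP2, 3.02 and 2.87 BPKM in ptrFOXP2, 4.02 and 3.68 BPKM in mmuFOXP2, and 3.45 and 3.23 BPKM in cjaFOXP2, against 3.43 and 3.77 BPKM in pcDNA3, so that hsaFOXP2 A alone stood above 4.02 BPKM. EFNB2, a ligand of EPHB4, had 11.9 and 21.1 BPKM in hsaFOXP2, 17.2 and 21.2 BPKM in ptrFOXP2, 13.9 and 15.0 BPKM in mmuFOXP2, and 23.7 and 14.1 BPKM in cjaFOXP2, against 16.3 and 21.0 BPKM in pcDNA3. EFNB3 had 19.6 and 25 BPKM in hsaFOXP2, 14.8 and 13.9 BPKM in ptrFOXP2, 15.7 and 16.0 BPKM in mmuFOXP2, and 29.2 and 14.1 BPKM in cjaFOXP2, against 14.6 and 21.1 BPKM in pcDNA3. Neither of these 2 ephrin-B genes separated any condition from the rest.

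SLIT2 had 62.2 and 85.5 BPKM in hsaFOXP2, 83.0 and 84.9 BPKM in ptrFOXP2, 79.0 and 91.7 BPKM in mmuFOXP2, and 78.5 and 69.6 BPKM in cjaFOXP2, against 81.8 and 79.8 BPKM in pcDNA3. This secreted Robo ligand had the smallest relative range of the 7 members with a mean of at least 20 BPKM. SLIT1 stayed at or below 0.0729 BPKM. The Slit receptor ROBO1 had 26.1 and 63.5 BPKM in hsaFOXP2, 28.6 and 35.3 BPKM in ptrFOXP2, 30.1 and 27.1 BPKM in mmuFOXP2, and 42.8 and 31.7 BPKM in cjaFOXP2, against 28.8 and 32.2 BPKM in pcDNA3. hsaFOXP2 supplied both its lowest and its highest library. ROBO3, which regulates midline crossing, had 5.77 and 7.28 BPKM in hsaFOXP2, 5.56 and 5.70 BPKM in ptrFOXP2, 6.91 and 6.28 BPKM in mmuFOXP2, and 9.30 and 8.80 BPKM in cjaFOXP2, against 6.14 and 8.16 BPKM in pcDNA3. ROBO2 lay between 0.476 and 1.23 BPKM and ROBO4, known from endothelium, between 0.107 and 0.427 BPKM.

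Netrin receptors far exceeded netrin ligands. Summed over the 5 receptor genes, the level was 35.9 to 123 BPKM per library, while the 3 netrin genes summed to 1.43 to 4.43 BPKM, with NTN1 at or below 0.0244 BPKM. UNC5B provided most of the receptor RNA in every library, and UNC5D stayed at or below 0.0191 BPKM. UNC5C had 27.0 and 8.07 BPKM in hsaFOXP2, 8.53 and 9.31 BPKM in ptrFOXP2, 12.3 and 10.3 BPKM in mmuFOXP2, and 7.54 and 6.16 BPKM in cjaFOXP2, against 8.90 and 8.91 BPKM in pcDNA3. hsaFOXP2 A was the highest library and hsaFOXP2 B lay below both pcDNA3 libraries.

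The comparison of hsaFOXP2 with non-human *FOXP2* (2 against 6 libraries) gave positive estimates for most members and no member that passed the test. EPHB4, SLIT3, EFNA4 and EFNB1 were higher and EPHB6 was lower in both hsaFOXP2 libraries than in every other library, the empty plasmid included. Across all genes, limma on log2(BPKM + 0.1) with Benjamini-Hochberg adjustment called 0.00912% of 21937 genes at an adjusted p under 0.05, and 0 of 35 members tested, the smallest adjusted p of a member being 0.869. Without adjustment, 7 of 35 members (20%) had a p under 0.05, 6 with a positive and 1 with a negative estimate, against 4.44% of all genes. The estimate was positive for 27 of 35 members (77.1%), against 53.6% of all genes, and the median log2 fold change was 0.30 over the members, 0.36 over ligands and 0.23 over receptors, against 0.01 over all genes. With a pseudocount of 1 BPKM the median over the members was 0.07, and without hsaFOXP2 B it was 0.18. The members share 2 hsaFOXP2 libraries, so their signs are not independent observations.

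EPHB4 had 33.9 and 31.1 BPKM in hsaFOXP2, against 22.7 and 19.8 BPKM in ptrFOXP2, 26.0 and 21.2 BPKM in mmuFOXP2 and 26.5 and 23.9 BPKM in cjaFOXP2, with 22.3 and 25.2 BPKM in pcDNA3. It averaged 32.5 ± 1.95 BPKM in hsaFOXP2 (SD, n = 2) and 23.3 ± 2.64 BPKM over the libraries of the other 3 cDNAs (SD, n = 6), a ratio of 1.39. The lower hsaFOXP2 library lay above the highest of the others by more than 1 SD of either group, and all 6 of its transcripts showed the same order. The limma estimate was a log2 fold change of 0.48 ± 0.14 (SE; adjusted p = 0.869). Within replicate A hsaFOXP2 was 1.35 times the mean of its 3 non-human counterparts, and within replicate B it was 1.44 times.

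SLIT3, a secreted Robo ligand, had 35.7 and 19.6 BPKM in hsaFOXP2, against 11.8 and 16.3 BPKM in ptrFOXP2, 12.6 and 15.0 BPKM in mmuFOXP2 and 19.1 and 16.3 BPKM in cjaFOXP2, with 15.1 and 19.2 BPKM in pcDNA3. The order rests on a narrow margin, since hsaFOXP2 B exceeded pcDNA3 B and cjaFOXP2 A by under 1 BPKM, and under median-ratio scaling SLIT3 no longer met the criterion. The limma log2 fold change over non-human *FOXP2* was 0.81 ± 0.25 (SE; adjusted p = 0.906), and it was 0.38 without hsaFOXP2 A and 1.25 without hsaFOXP2 B. The ratio to the non-human mean was 2.46 in replicate A and 1.24 in replicate B, and 3 of its 4 transcripts met the criterion.

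EFNA4 had 26.0 and 24.2 BPKM in hsaFOXP2, against 19.7 and 18.1 BPKM in ptrFOXP2, 23.1 and 18.7 BPKM in mmuFOXP2 and 19.3 and 17.4 BPKM in cjaFOXP2, with 19.5 and 22.5 BPKM in pcDNA3. This lipid-anchored ephrin gave a limma log2 fold change of 0.37 ± 0.13 (SE; adjusted p = 0.975), with 3 of 3 transcripts in the same order. EFNB1 had 4.66 and 5.94 BPKM in hsaFOXP2, against 4.23 and 3.05 BPKM in ptrFOXP2, 4.21 and 4.2 BPKM in mmuFOXP2 and 4.09 and 4.28 BPKM in cjaFOXP2, with 4.19 and 3.54 BPKM in pcDNA3. Its margin over the next library was under 1 BPKM in replicate A, and the limma log2 fold change was 0.39 ± 0.16 (SE; adjusted p = 1). EFNB1 is also on a shorter gene list that the study drew from these libraries. That list was taken from genes that met the same order of libraries, so it is not independent evidence.

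EPHB6 went the other way. It had 22.9 and 17.8 BPKM in hsaFOXP2, against 32.7 and 34.9 BPKM in ptrFOXP2, 23.7 and 39.8 BPKM in mmuFOXP2 and 32.0 and 28.9 BPKM in cjaFOXP2, with 28.9 and 30.0 BPKM in pcDNA3. The mean was 20.3 ± 3.61 BPKM in hsaFOXP2 (SD, n = 2) and 32.0 ± 5.43 BPKM over the libraries of the other 3 cDNAs (SD, n = 6), and the limma log2 fold change was -0.65 ± 0.20 (SE; adjusted p = 0.896). mmuFOXP2 A, at 23.7 BPKM, was the only non-human library near the hsaFOXP2 values, and 6 of 7 transcripts met the criterion.

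**Figure D2:**
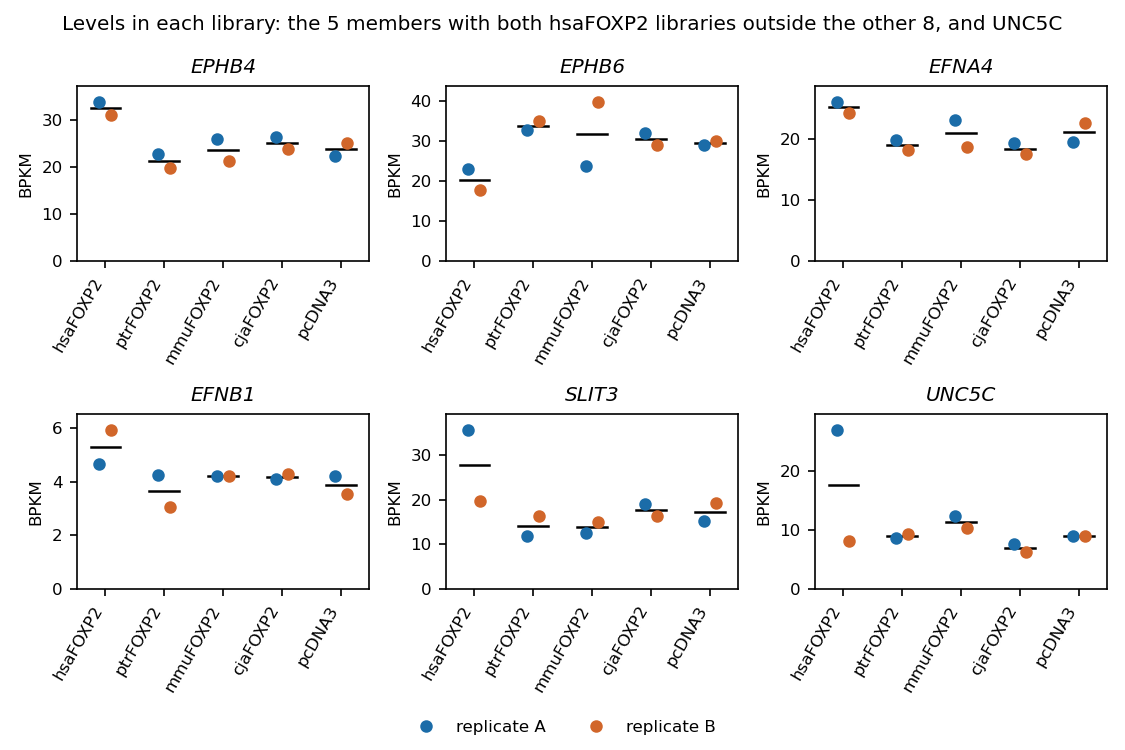
BPKM of 6 members in each library, by condition (x axis), with replicate A and B as points and the mean of both as a bar. Both hsaFOXP2 points lie above all others for EPHB4, EFNA4, EFNB1 and SLIT3 and below all others for EPHB6, whereas UNC5C is high in hsaFOXP2 A (27.0 BPKM) and not in hsaFOXP2 B (8.07 BPKM).

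The criterion of both hsaFOXP2 libraries outside the 8 others is the study's own first screen of these libraries, so the order of these 5 members is not independent evidence of direction. By it, 4 of 35 members expressed in any library (11.4%) were higher, against 2.23% of all expressed genes, and 1 of 35 (2.86%) was lower, against 1.61%. After scaling by median ratios, 3 members were higher (8.57%, against 1.88% of genes) and 1 was lower (2.86%, against 2.04%). EPHA10, which also had a small unadjusted p, was at 0.0457 and 0.0156 BPKM in hsaFOXP2, against 0.00312 to 0.0106 BPKM with non-human *FOXP2*. It had 0.0522 and 0.00821 BPKM in pcDNA3, whose replicate A was its highest library. All these levels are below the pseudocount, and SLIT1 was likewise near 0.

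**Figure D3:**
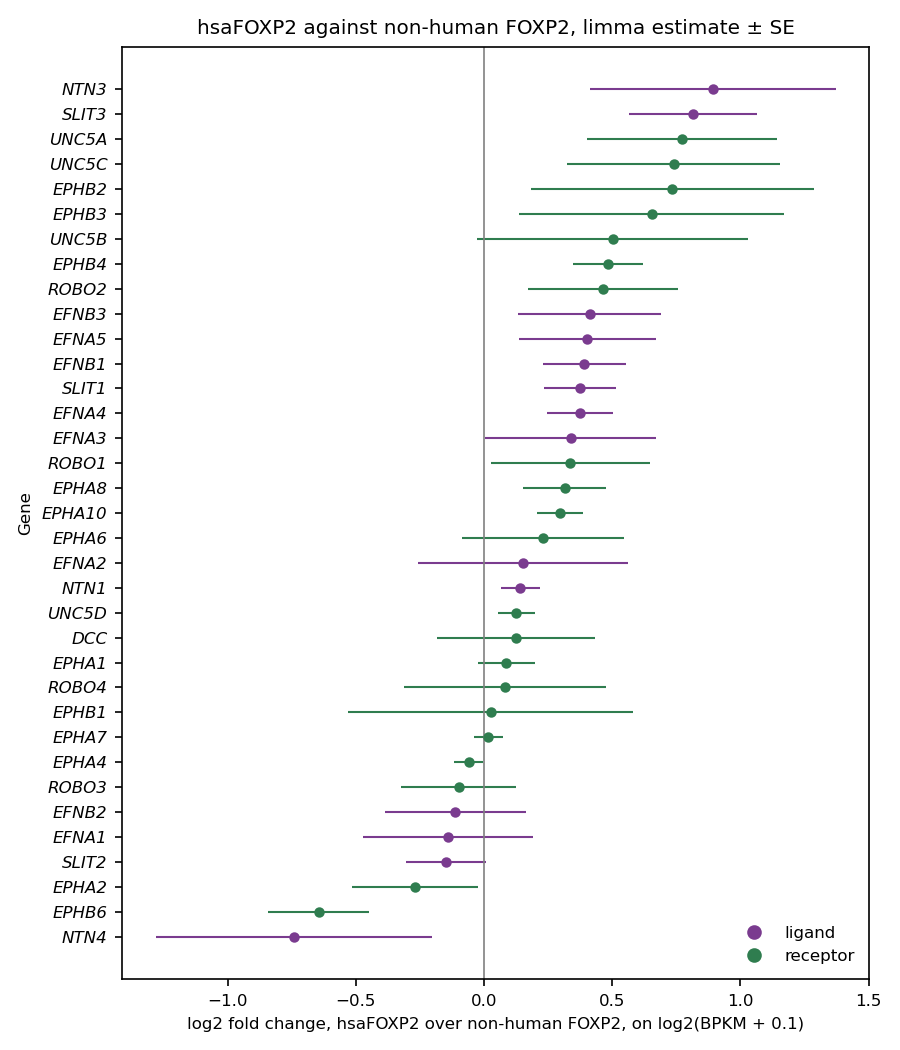
Log2 fold change of hsaFOXP2 over non-human *FOXP2* for the 35 members tested (limma on log2(BPKM + 0.1), points with bars of 1 SE), ligands and receptors in separate colours. Most points lie right of 0, NTN4 and EPHB6 lie farthest left, and no member passed the adjusted threshold.

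The list of partner genes of these pathways held 56 genes (effectors, co-receptors, proteases and heparan sulphate enzymes among them). In this comparison 3 of them had an unadjusted limma p under 0.05 (5.36%, against 4.44% of all genes), 2 higher and 1 lower. The share was near that of all genes, and 0 passed adjustment. NEO1, a DCC-related receptor, had 23.4 and 31.4 BPKM in hsaFOXP2, against 15.5 to 26.4 BPKM with non-human *FOXP2*. EXT1, a heparan sulphate polymerase, had 15.7 and 22.1 BPKM in hsaFOXP2, against 20.6 to 28 BPKM. These ranges overlap. MAGED1, which binds UNC5A, had 114 and 115 BPKM in hsaFOXP2, against 86.6 to 103 BPKM, without overlap. Of all expressed genes, 2.23% were higher in both hsaFOXP2 libraries than in the 8 others, and partners were not counted in this way.

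Set against the empty plasmid, UNC5A stood apart from all other members. This netrin receptor, able to trigger cell death without ligand, had 0.1 and 0.391 BPKM in hsaFOXP2, 0.118 and 0.0543 BPKM in ptrFOXP2, 0.0749 and 0.189 BPKM in mmuFOXP2, and 0.0566 and 0.0427 BPKM in cjaFOXP2, against 0.945 and 0.600 BPKM in pcDNA3. All 8 libraries with *FOXP2* were below both with empty plasmid, in each of its 3 transcripts, at a low level throughout. The mean was 0.128 ± 0.116 BPKM with *FOXP2* (SD, n = 8) and 0.773 ± 0.244 BPKM in pcDNA3 (SD, n = 2), and limma gave a log2 fold change of -2.03 ± 0.36 (SE; adjusted p = 0.365). The estimate was -1.45 for hsaFOXP2, -2.22 for ptrFOXP2, -1.93 for mmuFOXP2 and -2.52 for cjaFOXP2, all on the log2(BPKM + 0.1) scale against the same 2 pcDNA3 libraries. Without hsaFOXP2 A the hsaFOXP2 estimate was -0.80. Its size depended on the pseudocount, being -0.65 with 1 BPKM and -2.79 with 0.01 BPKM. Within replicate A the mean of the *FOXP2* libraries was 0.0925 times pcDNA3, and within replicate B 0.282 times.

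No member was above both pcDNA3 libraries in all 8 *FOXP2* libraries, against 0.548% of expressed genes, and UNC5A was the only one below (2.86% of members, against 1.73%). The pooled comparison gave 0 adjusted calls among members, against 0.00450% of 22238 genes, and 3 unadjusted p under 0.05 (8.57%, against 3.57%), all with negative estimates. EPHA8 and SLIT1, the other 2, were at or below 0.109 BPKM. Among adrenergic markers, CHGA was at 0.236 to 3.24 BPKM in the *FOXP2* libraries, against 10.1 and 6.00 BPKM in pcDNA3. This marker separated *FOXP2* from pcDNA3 in the same direction as UNC5A, whereas the summed list of 10 adrenergic markers did not (160 to 301 BPKM, against 242 and 218 BPKM), and the part of these markers in the result was not tested. Among partners, only GRB10, an adaptor of receptor kinases, had an unadjusted p under 0.05 (1.79% of partners, against 3.57% of genes). Its limma log2 fold change was 0.92 (adjusted p = 1), with 0.134 to 2.05 BPKM with *FOXP2*, against 0.359 and 0.366 BPKM in pcDNA3.

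Values of UNC5B, EPHB3, EFNA2 and NTN3 lay apart between cDNAs, with both cjaFOXP2 libraries above pcDNA3 and both ptrFOXP2 libraries below it. The highest NTN3 library was hsaFOXP2 B and the lowest EFNA2 library mmuFOXP2 B, and none of these genes passed the adjusted test. UNC5B had 65.7 and 74.5 BPKM in hsaFOXP2, 35.3 and 25.1 BPKM in ptrFOXP2, 48.8 and 36.0 BPKM in mmuFOXP2, and 114 and 81.5 BPKM in cjaFOXP2, against 40.7 and 47.0 BPKM in pcDNA3. Both cjaFOXP2 and both hsaFOXP2 libraries lay above every other one, and both ptrFOXP2 libraries lay below pcDNA3. The limma log2 fold change over pcDNA3 was 1.14 ± 0.25 for cjaFOXP2 (SE; adjusted p = 0.267) and 0.68 ± 0.25 for hsaFOXP2 (SE; adjusted p = 1). EPHB3 had 2.26 and 3.08 BPKM in hsaFOXP2, 0.953 and 0.991 BPKM in ptrFOXP2, 1.54 and 1.17 BPKM in mmuFOXP2, and 3.49 and 3.17 BPKM in cjaFOXP2, against 1.51 and 2.48 BPKM in pcDNA3. Its limma log2 fold change was -0.93 ± 0.27 for ptrFOXP2 (SE; adjusted p = 1) and 0.75 ± 0.27 for cjaFOXP2 (SE; adjusted p = 0.387). The EPHB3 estimate for ptrFOXP2 was -0.59 without pcDNA3 B, and that for cjaFOXP2 was 0.41 without pcDNA3 A.

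EFNA2 had 2.39 and 3.85 BPKM in hsaFOXP2, 2.20 and 2.09 BPKM in ptrFOXP2, 2.04 and 1.95 BPKM in mmuFOXP2, and 4.79 and 4.60 BPKM in cjaFOXP2, against 3.61 and 2.86 BPKM in pcDNA3. The ligand NTN3 had 1.1 and 2.02 BPKM in hsaFOXP2, 0.448 and 0.650 BPKM in ptrFOXP2, 0.552 and 0.519 BPKM in mmuFOXP2, and 1.37 and 1.56 BPKM in cjaFOXP2, against 0.861 and 0.961 BPKM in pcDNA3. Both genes were thus below pcDNA3 in the 4 ptrFOXP2 and mmuFOXP2 libraries and above it in both cjaFOXP2 libraries. DCC, the attractive netrin receptor, had 1.78 and 1.11 BPKM in hsaFOXP2, 0.885 and 1.43 BPKM in ptrFOXP2, 0.897 and 1.49 BPKM in mmuFOXP2, and 1.38 and 1.91 BPKM in cjaFOXP2, against 0.664 and 1.02 BPKM in pcDNA3. Both hsaFOXP2 and both cjaFOXP2 libraries were above pcDNA3 in DCC. The fibroblast marker list was high in some of these libraries, summing to 281 and 233 BPKM in cjaFOXP2 and 244 BPKM in hsaFOXP2 B. In hsaFOXP2 A, where UNC5B and DCC were also above pcDNA3, it summed to 109 BPKM. The other *FOXP2* libraries had 102 to 174 BPKM, and pcDNA3 had 133 and 214 BPKM. Of the 6 fibroblast markers, 2 were above pcDNA3 in both cjaFOXP2 libraries and COL1A2 stayed at or below 0.205 BPKM. DCN of the same list went the other way, being below pcDNA3 in all 8 *FOXP2* libraries. In cjaFOXP2, 4 of 6 Schwann cell markers were above pcDNA3 in both libraries, with SOX10 at 0 in both. The Schwann cell list summed to 98.0 and 81.7 BPKM in cjaFOXP2 and 140 BPKM in hsaFOXP2 B, against 40.8 to 52.0 BPKM in the other *FOXP2* libraries and 50.6 and 54.3 BPKM in pcDNA3, most of it PMP22. The part of both lists in the result was not tested.

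**Figure D4:**
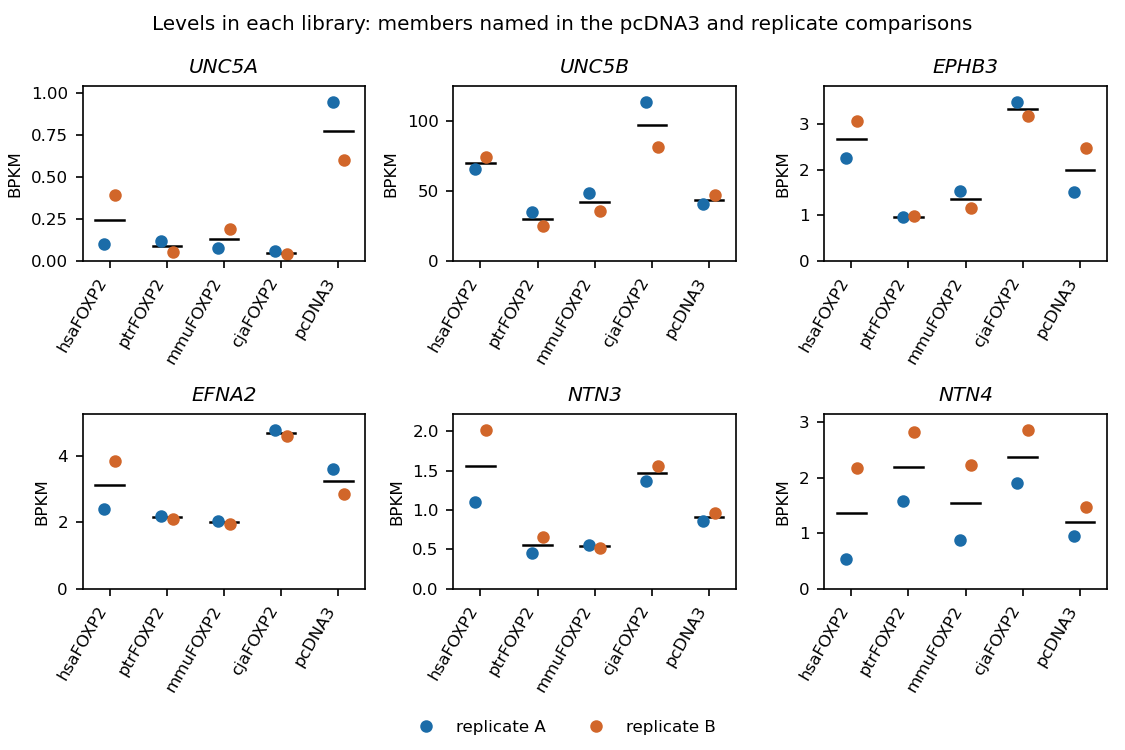
BPKM of 6 members in each library, by condition (x axis), with replicate A and B as points and the mean of both as a bar. UNC5A is highest in both pcDNA3 libraries (0.945 and 0.600 BPKM), UNC5B, EPHB3 and EFNA2 are highest in cjaFOXP2, and for NTN4 the replicate B point lies above replicate A in all 5 conditions.

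Over all members, each cDNA set against pcDNA3 gave 0 adjusted calls, against 0.00899% of genes for hsaFOXP2, ptrFOXP2 and cjaFOXP2 and 0.00450% for mmuFOXP2. Unadjusted p under 0.05 were found for 3 of 35 members with hsaFOXP2 (8.57%, against 4.77% of genes), 6 with ptrFOXP2 (17.1%, against 3.38%), 4 with mmuFOXP2 (11.4%, against 3.11%) and 7 with cjaFOXP2 (20%, against 11%). The low member UNC5A was among them for every cDNA, and EPHA8 and SLIT1, near 0, for ptrFOXP2, mmuFOXP2 and cjaFOXP2. Of 22 members with a mean of at least 1 BPKM, 2 remained with hsaFOXP2 (9.09%, against 3.8% of genes at that level). With ptrFOXP2 2 remained (9.09%, against 1.36%), with mmuFOXP2 1 (4.55%, against 0.85%) and with cjaFOXP2 4 (18.2%, against 11.3%). The 6 in ptrFOXP2 and the 4 in mmuFOXP2 were all negative, and 26 of 35 ptrFOXP2 estimates were negative (74.3%, against 58.3% of genes). Both cjaFOXP2 libraries lay above all other 8 in EPHB3, EFNA2, ROBO3 and UNC5B (11.4% of members, against 5.78% of genes) and below them in UNC5C (2.86%, against 7.62%). EPHB3 no longer met this under median-ratio scaling (8.57% of members, against 7.30% of genes), and UNC5C no longer did with the transcript of the highest mean (0 members, against 7.5%). Partner genes gave 2 unadjusted p under 0.05 with hsaFOXP2 (3.57%), 0 with ptrFOXP2, 1 with mmuFOXP2 (1.79%) and 2 with cjaFOXP2 (3.57%). Each share was below that of all genes for the same cDNA, and none of these passed adjustment. An F test in limma over the 5 conditions, chosen after seeing the data, called 0 members after adjustment, against 0.0135% of genes, and 7 without it, against 8.75%, with UNC5B (adjusted p = 0.347) and EPHB3 (adjusted p = 0.347) the smallest.

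The call for hsaFOXP2 against pcDNA3 rests on which hsaFOXP2 library is used. Without hsaFOXP2 B, UNC5C passed with a limma log2 fold change of 1.59 ± 0.18 (SE; adjusted p = 0.0305), as did 0.326% of 22088 genes, and the lone hsaFOXP2 library was then assumed to vary like the other conditions. With both libraries UNC5C did not pass.

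The replicates themselves differed most in hsaFOXP2. Among the 22 members with a mean of at least 1 BPKM, the median fold between replicate A and replicate B was 1.60 in hsaFOXP2, 1.19 in ptrFOXP2, 1.19 in mmuFOXP2 and 1.13 in cjaFOXP2, with 1.15 in pcDNA3. Over all genes at that level the hsaFOXP2 median was 1.29 and the others lay at 1.14 to 1.18. For 12 of these 22 members the widest gap between replicates was that of hsaFOXP2, and 6 reached 2-fold there, against at most 1 in any other condition. Replicate A over B in hsaFOXP2 was 3.35 for UNC5C, 3.07 for EPHB2 and 2.22 for EFNA5, and 0.411 for ROBO1, 0.400 for EFNA1 and 0.246 for NTN4. In the same pair the mesenchymal marker PRRX1 had 42.3 BPKM in replicate A and 1.90 BPKM in replicate B. Others of its list went the other way, FOSL2 with 6.5 and 16.3 BPKM and CD44 with 125 and 171 BPKM. The adrenergic marker PHOX2A had 101 and 19.3 BPKM, while GATA3 had 45.1 and 44.4 BPKM and HAND2 had 102 and 114 BPKM. The Schwann cell marker PMP22 had 46.3 and 135 BPKM. The part of these markers in the member values was not tested.

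**Figure D5:**
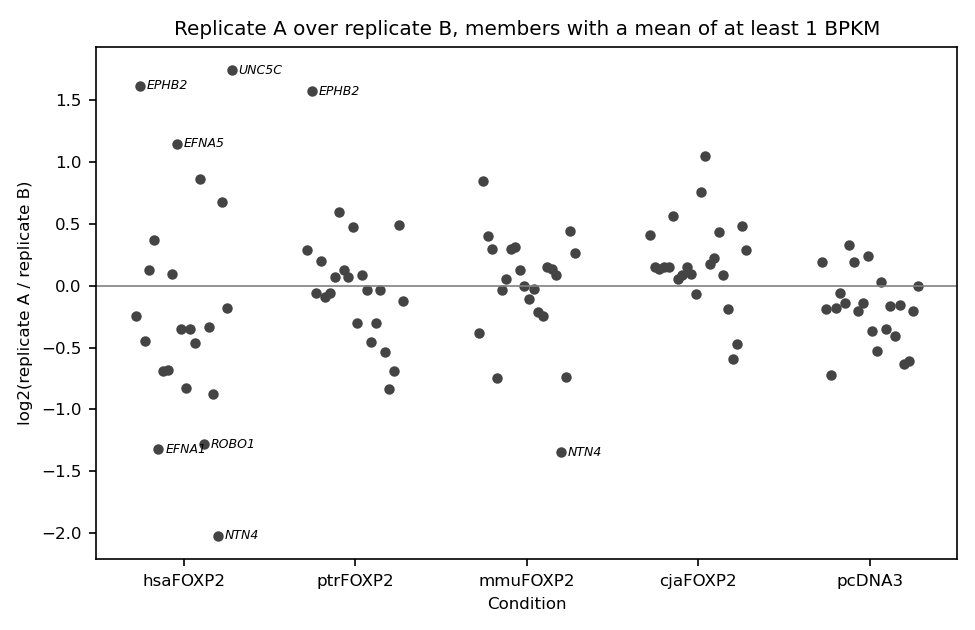
Log2 ratio of replicate A to replicate B within each condition (x axis) for the 22 members with a mean of at least 1 BPKM (points, spread sideways only for legibility, with the gene named where the ratio is largest). The hsaFOXP2 points spread widest, from NTN4 to UNC5C, and NTN4 lies below 0 in every condition.

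Replicate A against replicate B over the 5 conditions gave 0 adjusted calls for members and for all genes (0%), and unadjusted p under 0.05 for 2 of 35 members (5.71%), below the 11% of all genes. NTN4, a netrin of basement membranes, had 0.536, 1.58, 0.876, 1.90 and 0.951 BPKM in replicate A of hsaFOXP2, ptrFOXP2, mmuFOXP2, cjaFOXP2 and pcDNA3, against 2.18, 2.82, 2.23, 2.87 and 1.47 BPKM in replicate B. Replicate B was higher in 5 of 5 conditions, and limma gave a log2 difference of -1.01 ± 0.21 (SE; adjusted p = 0.426). EPHB2 was higher in replicate A in 4 of 5 conditions, with a log2 difference of 0.79 ± 0.29 (SE; adjusted p = 0.444). No member was higher in replicate A in all 5 conditions, against 2.75% of genes, and NTN4 and EPHA6 were higher in replicate B in all 5 (5.71%, against 6.04%). Of the partners, 3 had an unadjusted p under 0.05 (5.36%, below the 11% of all genes), and 0 passed adjustment. They were PAK1, a kinase downstream of Rac and Cdc42, NGEF, an Eph-linked exchange factor, and RGMB, a ligand of neogenin. Their log2 differences were 0.40, 0.59 and 0.37 in favour of replicate A.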

How the data were processed

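SH-SY5Y libraries (2 × 5 conditions, poly(A) RNA from 600 ng of total RNA) were aligned by the authors to hg19 with STAR (version not given in the sources used here) and counted over exons of UCSC transcripts; strand use in counting is not given, and close paralogues may share reads. The deposited table holds BPKM, an RPKM-type unit made by the authors per kilobase of exon model and scaled to the mapped bases of each library, and no counts. Absolute depth is unknown, so no counting intervals were given. Columns were assigned by the sample titles, and 0 columns of other samples were used.

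Transcript values were averaged per symbol, and log2(BPKM + 0.1) was fitted with limma 3.58.1 (R 4.3.3; trend and robust moderation) for genes above 0 in at least 2 libraries, with Benjamini-Hochberg adjustment over all genes and a threshold of 0.05. Comparison 1 used the 8 *FOXP2* libraries and the others all 10, so the pcDNA3 contrasts share their control libraries. The code was tested on simulated data. Replicate letters mark a transfection round per the labels and thus pair the libraries; correlations of A minus B differences between conditions were -0.194 to 0.369, above 0.1 in 5 of 10 pairs. Alternatives were the pseudocount, filter, transcript summary, scaling, moderation, replicate block and each library left out. Members and lists were chosen with earlier results of these data known. Per-library values are given for members with a mean of at least 2 BPKM, and for up to 4 members per comparison with the smallest unadjusted p. Of the latter, EPHA8 and SLIT1, near 0, are given only by an upper bound, and EPHA10 by range with non-human *FOXP2*. NTN3 and DCC were named after their values were seen. The labels call the 2 replicates biological. Sequences are from RefSeq (GRCh38.p14), not the build of the files, and hg19 coordinates were not used. Python 3.11.15 was used for tables and figures. One marker is not reported here.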

Additional observations from a re-analysis of the deposited data

Results flagged for a closer look

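Within the 6 non-human or the 8 *FOXP2* libraries, 6 of 38 sets of values for members with a mean of at least 2 BPKM held a library far from the rest (15.8%), against 5.52% of the sets of all genes at that level, where chance alone flags about 1 in 20. The sets are not independent, since each gene enters with both groups and the 6 libraries are part of the 8, and hsaFOXP2 replicates lay wider apart over all genes too. EFNA5 (6.64 BPKM), SLIT3 (35.7 BPKM) and UNC5C (27.0 BPKM) were far above the others in hsaFOXP2 A, and ROBO1 (63.5 BPKM) in hsaFOXP2 B. EFNB3 was far above the others in cjaFOXP2 A (29.2 BPKM), and EFNB1 far below in ptrFOXP2 B (3.05 BPKM).

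For 15 of 132 pairs of cDNAs over 22 members (11.4%), against 3.27% over all genes averaging 1 BPKM or more, both libraries of one cDNA lay on one side of pcDNA3 and both of the other on the opposite side. These differences were not tested pair by pair, and they are given as differences of log2 fold changes over pcDNA3. For hsaFOXP2 minus ptrFOXP2 they were -0.74 for EPHB6, 1.32 for NTN3 and 1.23 for UNC5B. For hsaFOXP2 minus mmuFOXP2 they were 0.94 for SLIT3 and 1.33 for NTN3, and for hsaFOXP2 minus cjaFOXP2 0.45 for EFNA4. For ptrFOXP2 minus cjaFOXP2 they were -1.67 for EPHB3, -1.10 for EFNA2, 0.18 for SLIT2, -0.67 for ROBO3, -1.28 for NTN3 and -1.69 for UNC5B. For mmuFOXP2 minus cjaFOXP2 they were -1.19 for EFNA2, -1.30 for NTN3 and 0.72 for UNC5C.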

How the results depend on the processing

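In all 7 comparisons, 0 members passed the adjusted threshold under every alternative that kept all libraries, including the replicate block, which gave 0 members in each of the 6 comparisons fitted with it. Leaving out 1 library gave 0 members in 6 comparisons and 0 to 1 for hsaFOXP2 against pcDNA3, where UNC5C passed without hsaFOXP2 B. None of 24 single-gene estimates changed sign in 440 refits. Counts of members with an unadjusted p under 0.05 moved by over 1.5 times in several cases. With only genes of a mean of at least 1 BPKM, they were 0 instead of 3 for *FOXP2*, 2 instead of 6 for ptrFOXP2, 1 instead of 4 for mmuFOXP2 and 4 instead of 7 for cjaFOXP2, each against pcDNA3, because low members were not tested. The shares of all genes at that filter were 1.33%, 1.36%, 0.85% and 11.3% in the same order. Median-ratio scaling gave 3 instead of 6 for ptrFOXP2. Leaving out 1 library gave 6 to 10 members for hsaFOXP2 against non-human *FOXP2*, 2 to 6 for *FOXP2* against pcDNA3, 1 to 10 for hsaFOXP2, 3 to 7 for ptrFOXP2, 2 to 6 for mmuFOXP2 and 3 to 10 for cjaFOXP2 against pcDNA3, and 1 to 3 between replicates. With 2 libraries per condition and no counts, differences within the spread of the replicates were not detectable, and the causes of these shifts were not tested.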
